A study of Mus musculus with 2 samples.

Results

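The genes described here are 6 regulators and markers of the neuroectoderm, the embryonic layer that gives rise to the nervous system: Sox1, Nes, Pax6, Pax3, Neurog2 and Olig2. They were examined as regions of open chromatin in mouse embryonic stem cells (ESCs). A region of open chromatin is called a peak, and a peak was assigned to a gene when its middle lay in the gene or within 50 kb on either side. The background was 22367 annotated protein-coding genes, which include 5 of the 6 genes, all but Sox1. The windows of the 6 genes held 61 of the 71914 peaks listed for wild-type (WT) ESCs. They held 34 of the 61640 peaks listed for ESCs lacking Uhrf1 (KO).

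The peaks came from ATAC-seq, in which the Tn5 transposase cuts and tags DNA that nucleosomes leave exposed. One group was WT E14, a line of mouse ESCs, and the other was E14 in which Uhrf1 had been knocked out. Both were undifferentiated ESCs grown in serum with leukemia inhibitory factor on gelatin or on mouse embryonic fibroblasts (MEFs), and 50000 cells were lysed for each library. There was 1 library per genotype, so no difference between the lists has a replicate error, the genotypes could not be tested, and every value below describes these libraries. The lists hold positions without read counts, and they cannot tell fewer cells with an open site from a less open site in each cell.

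Uhrf1 binds hemimethylated DNA after replication and brings Dnmt1 there, which maintains DNA methylation. Sox1 is a SoxB1 transcription factor that marks the neural plate, and Nes encodes nestin, an intermediate filament of neural progenitors. Pax6 and Pax3 are paired-box factors that pattern the neural tube, with Pax3 acting dorsally and in the neural crest. Neurog2 is a proneural basic helix-loop-helix (bHLH) factor that drives neuronal differentiation, and Olig2 is a bHLH factor of motor neuron and oligodendrocyte progenitors. These genes are mostly silent in undifferentiated ESCs, where many developmental genes with CpG-rich promoters carry both active and Polycomb-repressed histone marks.

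The sequences below show the DNA on which the comparison turns, on the plus strand of the mm9 build. The first is the stretch of 250 bases just before the Sox1 transcription start site (TSS), as RefSeq gives it and as it matched mm9 at 1 place, which WT peaks overlapped and no KO peak did. It is followed by the WT peak next to the start of each of the other genes that had such a peak, all of which had a partner in KO. Capitals mark CpG dinucleotides, the sites of DNA methylation.
Sox1, before the TSS (chr8:12395269-12395518): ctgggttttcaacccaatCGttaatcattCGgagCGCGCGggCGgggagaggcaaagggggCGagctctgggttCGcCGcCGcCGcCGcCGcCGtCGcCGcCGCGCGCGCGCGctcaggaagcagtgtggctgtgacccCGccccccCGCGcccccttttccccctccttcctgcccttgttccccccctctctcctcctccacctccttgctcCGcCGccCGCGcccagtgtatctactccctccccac
Pax6, 0.2 kb upstream (chr2:105508817-105508917): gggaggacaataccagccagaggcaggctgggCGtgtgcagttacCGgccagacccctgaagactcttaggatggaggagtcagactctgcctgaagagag
Pax3, 0.1 kb upstream (chr1:78193766-78193866): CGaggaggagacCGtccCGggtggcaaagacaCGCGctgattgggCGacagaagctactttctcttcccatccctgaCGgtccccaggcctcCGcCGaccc
Neurog2, 0.4 kb upstream (chr3:127335644-127335744): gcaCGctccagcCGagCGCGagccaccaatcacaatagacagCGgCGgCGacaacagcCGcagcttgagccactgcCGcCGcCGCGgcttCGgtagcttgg
Olig2, 0.2 kb upstream (chr16:91225522-91225622): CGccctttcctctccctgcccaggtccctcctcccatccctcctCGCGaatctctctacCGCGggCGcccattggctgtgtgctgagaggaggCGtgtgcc
The Sox1 stretch held 29 CpGs and 71.2% GC. The peaks, which are shorter and of one width, held 2 CpGs at Pax6, 9 at Pax3, 13 at Neurog2 and 7 at Olig2, and their GC content was 59.4%, 65.3%, 68.3% and 67.3%. Of these 5 sequences, the one at Sox1 had the highest GC content, over a longer stretch, and was the only one without a KO peak. Single WT-only peaks at Sox1 varied. The one 359 bp before the TSS held 2 CpGs and 59.4% GC, the same values as the shared Pax6 peak. The one 160 bp before the TSS held 18 CpGs and 79.2% GC.

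The next sequences lie away from the annotated start of the gene record and were listed in both libraries. They are shown because each is the only peak in its gene, the peak with the lowest number in its name, or a peak with a transcription factor motif. Capitals mark that motif, read on either strand.
Nes, intron 2, WT peak, proneural E-box CAGATGG (chr3:87778314-87778414): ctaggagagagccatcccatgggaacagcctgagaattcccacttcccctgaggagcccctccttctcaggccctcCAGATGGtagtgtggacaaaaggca
Sox1, 3.8 kb upstream, KO peak, CTCF motif (chr8:12391712-12391812): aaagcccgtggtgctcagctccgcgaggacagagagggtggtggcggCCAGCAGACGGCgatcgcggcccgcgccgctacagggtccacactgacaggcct
Pax6, intron 3, KO peak, KLF motif CCCCACCC (chr2:105520837-105520937): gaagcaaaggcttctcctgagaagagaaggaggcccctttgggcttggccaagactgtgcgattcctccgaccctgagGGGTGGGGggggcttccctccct
Neurog2, 7.6 kb upstream, WT peak, no motif capitals (chr3:127328385-127328485): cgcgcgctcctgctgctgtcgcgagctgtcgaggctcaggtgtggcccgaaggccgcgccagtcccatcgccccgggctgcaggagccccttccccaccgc
Pax3, 20.2 kb upstream, WT peak, no motif capitals (chr1:78213909-78214009): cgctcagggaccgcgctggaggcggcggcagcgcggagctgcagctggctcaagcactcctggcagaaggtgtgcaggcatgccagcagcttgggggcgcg
The searched motifs were found in none of the last 2 of these sequences. A match is a description of these letters and not a bound site.

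Over the 6 windows, the WT list held 61 peaks (95% exact Poisson interval 46.7 to 78.4) and the KO list 34 (23.5 to 47.5), a KO to WT ratio of 0.557. The whole lists had a ratio of 0.857. KO peaks were 35.8% of the members' peaks (95% Clopper-Pearson interval 26.2% to 46.3%) and 46.2% of all listed peaks, which lies just inside that interval. All intervals here cover counting error only, and neighbouring peaks of a broad open region are not independent. Sox1 carried much of the difference: without it, a comparison chosen after seeing the data, the other 5 genes held 48 WT and 31 KO peaks, a ratio of 0.646 and a KO share of 39.2% (28.4% to 50.9%).

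Fewer KO than WT peaks were listed at 4 of the 6 genes, Pax6, Pax3, Sox1 and Nes, while 56.7% of all protein-coding genes had fewer. After adding 1 to each number, the KO to WT ratio was at most 0.5 at Sox1 (0.286) and Pax3 (0.400), that is 2 of 6 genes against 11.7% of all protein-coding genes. It was at least 2 at 0 of 6 genes, against 4.24%. Among genes with at least 60% GC in the 1 kb around the TSS, 69.5% had fewer KO peaks and 12.9% a ratio of at most 0.5. The median gene of the 6 had 11 WT and 6 KO peaks and a ratio of 0.580. The medians over all protein-coding genes were 7, 5 and 0.875, and over genes with at least 60% GC in the 1 kb around the TSS they were 9, 7 and 0.800. The medians of the 6 genes were thus above those of all genes in peak number and below in ratio, but Neurog2 and Olig2 had ratios of 1 and 1.5 and no more WT peaks than the median gene.

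**Figure D1:**
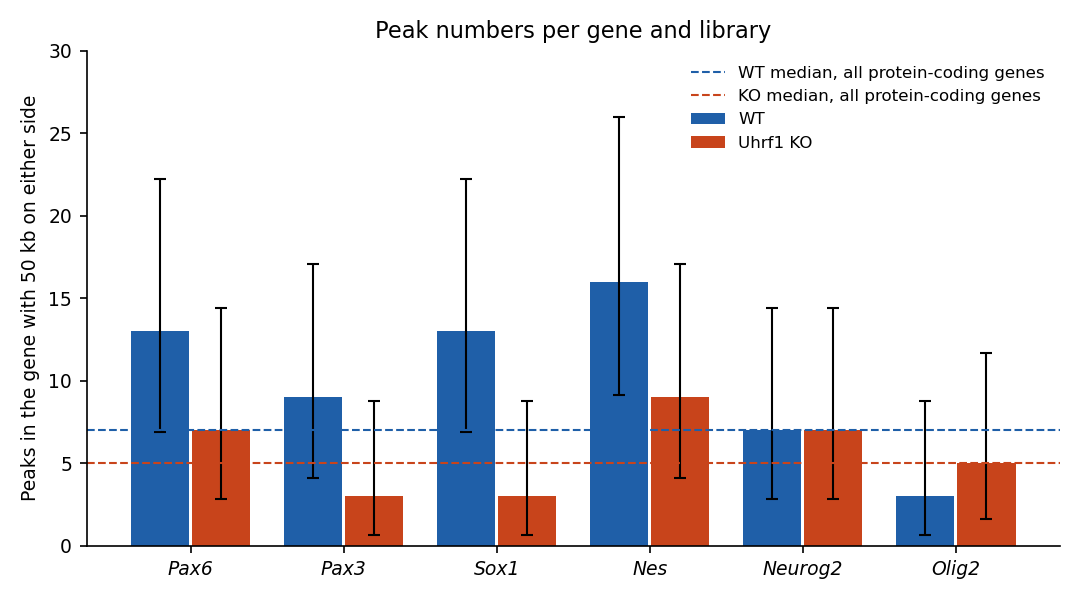
Number of listed peaks (y axis) in each gene with 50 kb on either side, for WT (blue) and Uhrf1 KO (orange), with 95% exact Poisson intervals for counting error as black bars and the medians of all protein-coding genes (7 WT, 5 KO) as dashed lines. Sox1 had 13 WT and 3 KO peaks and Pax3 had 9 and 3, Neurog2 had 7 in both, and Olig2 had 3 in WT and 5 in KO.

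A peak is called shared here when a peak of the other list lies at a gap of at most 100 bp, and WT-only or KO-only otherwise. In the 6 windows 27 of 61 WT peaks were WT-only, 44.3% (31.5% to 57.6%), and 32.1% of all WT peaks were, a share inside that interval. In KO, 2 of 34 peaks were KO-only, 5.88% (0.720% to 19.7%), against 24.6% of all KO peaks. Without Sox1 the WT-only share was 35.4% (22.2% to 50.5%, 17 of 48 peaks). Sox1 had no KO-only peak. The KO-only share depended on the pairing rule: when partners had to share 50% of both peaks, 35.3% of the members' KO peaks and 42.4% of all KO peaks were KO-only. WT-only peaks were most frequent at Sox1 and Pax3 (10 and 7 peaks), with 4 each at Pax6 and Nes and 1 each at Neurog2 and Olig2.

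The shared and unshared peaks differed in where they lay. Within 2 kb of an annotated transcript start of the gene, 12 of 25 WT peaks were WT-only, and all 13 KO peaks were shared. From 2 to 10 kb, 7 of 13 WT peaks were WT-only and all 6 KO peaks were shared. From 10 to 50 kb, 8 of 22 WT peaks were WT-only and 2 of 14 KO peaks KO-only. Over all WT peaks, 25.6% of those within 2 kb of any protein-coding start and 38.6% of those farther away were WT-only. These shares use the starts of all genes, while the members' distances are from each gene's own starts. Of the members' 12 WT-only peaks within 2 kb, 8 were those of Sox1. Without Sox1, 4 of 17 WT peaks within 2 kb were WT-only, so the excess over the list there was that of Sox1. For KO-only peaks the shares over all genes were 8.91% and 37.5%.

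**Figure D2:**
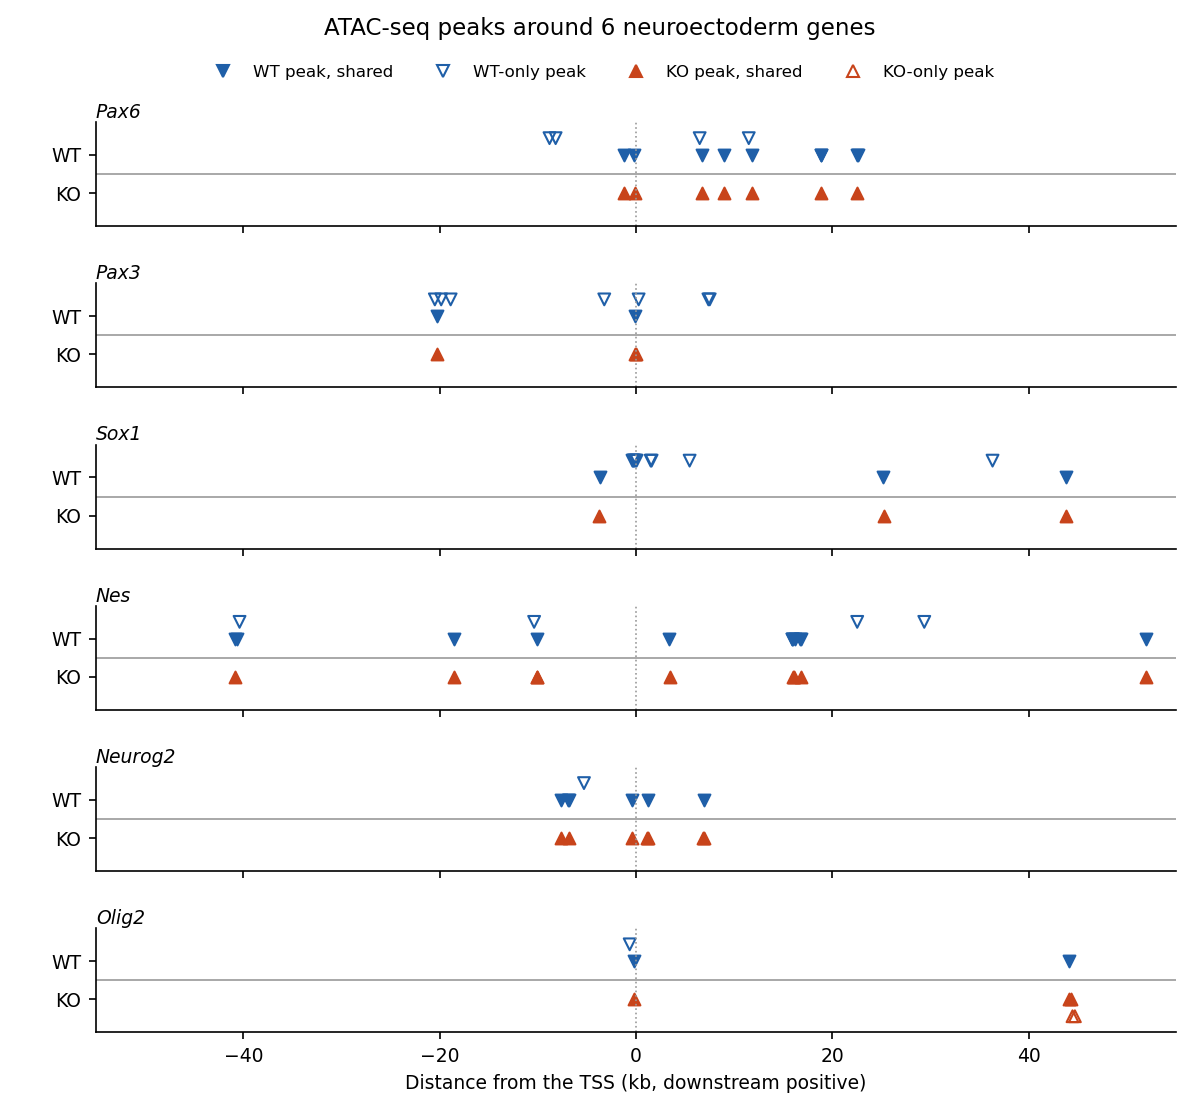
Position of every peak of the 6 genes by distance from the TSS in kb (x axis, downstream positive), with WT peaks as blue triangles on the upper line and KO peaks as orange triangles on the lower line of each panel. Filled triangles are shared peaks and open triangles, drawn farther from the middle line, are listed in 1 library only, and the 2 open KO triangles lie 44.5 and 44.7 kb downstream of the Olig2 TSS.

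A promoter peak was defined as one whose middle lay within 2 kb of the start of any annotated transcript. In WT 5 of the 6 genes had one, against 63.6% of protein-coding genes, and in KO 4 of 6 had one, against 58.7%. The gene without a promoter peak in either list was Nes. Sox1 had promoter peaks in WT and none in KO, a pattern shown by 6.64% of protein-coding genes, by 10.4% of those with a WT promoter peak and by 7.54% of those with at least 60% GC at the TSS. No member had a promoter peak in KO and none in WT, a pattern of 1.73% of genes. Across GC-rich genes 96.3% had a promoter peak in WT and 89.3% in KO. By the same limit 3 of the members were GC-rich, Sox1, Nes and Neurog2, of which Sox1 is not among the annotated genes counted.

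**Figure D3:**
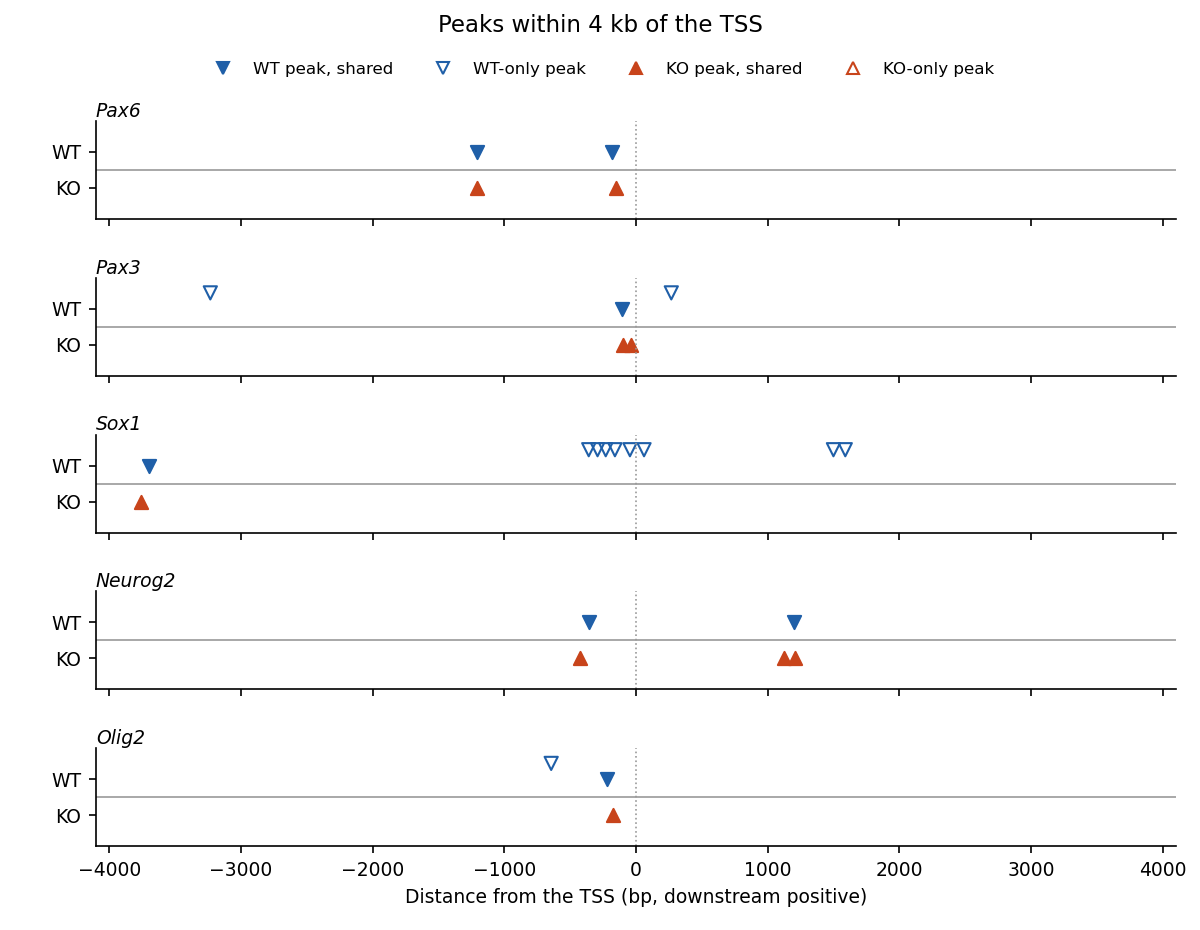
Peaks within 4 kb of the TSS in bp (x axis, downstream positive) at the 5 genes with a promoter peak, with WT as blue and KO as orange triangles, filled for shared and open, set farther from the middle line, for unshared peaks. The Sox1 panel shows 8 open WT triangles between 359 bp upstream and 1589 bp downstream and no KO triangle within 2 kb, while each of the other panels has a KO triangle no farther than 422 bp from the TSS.

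Sox1 gave the largest difference among the 6 genes. It has no entry of that name in the annotation used for the other genes, so its TSS was placed at position 12395519 of chromosome 8 on the plus strand by the exact match of its RefSeq promoter to the mm9 genome, and its window ran 50 kb to either side of the TSS. This position lies inside the annotated gene Gm5607, from 12385771 to 12436729 on the same strand. The window held 13 WT peaks (Poisson interval 6.92 to 22.2) and 3 KO peaks (0.619 to 8.77), intervals that overlap.

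Of the 13 WT peaks at Sox1, 8 were promoter peaks and all 8 were WT-only. Their middles lay 359, 292, 230, 160 and 46 bp before the TSS and 61, 1499 and 1589 bp after it. The first 6 of them lie in a row across the TSS and overlap or flank the sequence printed above. The peak 160 bp before the TSS (chr8:12395309-12395409) alone held 18 CpGs and was 79.2% GC. After neighbouring peaks were merged into regions, the window held 7 WT and 3 KO regions, so that the difference was smaller in regions than in peaks and the promoter still had none in KO.

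Away from the promoter, 3 Sox1 peaks were shared and 2 were WT-only. The shared ones lay 3.7 kb upstream (WT) and 25.2 and 43.8 kb downstream. Those 3 were all the KO peaks of the window, so the KO list had no peak from 3.7 kb upstream to 25.2 kb downstream of the TSS. The WT-only ones lay 5.5 and 36.3 kb downstream. The upstream shared site, printed above from the KO list, held a match to the CTCF motif, the binding sequence of the insulator protein.

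The number in a peak's name gives a further value. Within a chromosome each number occurs once, its meaning is not stated in the sources used here, and it is given below only as an order, as a percentile within the list's chromosome with 0 the lowest. At the 3 shared Sox1 sites the percentile went from 15.2 in WT to 79.4 in KO, from 54.4 to 79.4 and from 30 to 89.2. All 3 sites thus stood later in the KO order than in the WT order. The WT promoter peaks at Sox1 ranged from 20.9, for the peak 61 bp after the TSS, to 75.6, and 6 of the 8 stood in the first 50% of the WT order.

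Chromosome 8, which carries Sox1, had fewer KO than WT peaks as a whole. It held 4792 WT and 3072 KO peaks, a ratio of 0.641. On it 43.6% of WT peaks were WT-only and 17.1% of KO peaks KO-only, 79.9% of its protein-coding genes had fewer KO peaks, and 22.6% had a KO to WT ratio of at most 0.5. Of its genes with a WT promoter peak, 9.97% had none in KO, close to the 10.4% of all chromosomes. Among shared WT peaks of chromosome 8, 68.9% had a higher percentile in KO, against 55.1% of all shared WT peaks. The part of the chromosome in the Sox1 difference was not tested.

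As a comparison chosen after the Sox1 values were seen, 424 protein-coding genes had at least 8 WT promoter peaks, and every one had at least 1 KO promoter peak, with a median of 5. On chromosome 8 there were 33 such genes, with a lowest KO number of 1 and a median of 4. Sox1, with 8 and 0, was not among the annotated genes counted here. The nearest of these were 6 genes with 7 WT promoter peaks and 0 in KO, among them Hand2, a heart and neural crest bHLH factor that also lies on chromosome 8.

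Nes differed from the other genes in having no promoter peak in either list. Its gene lies on chromosome 3 from 87775000 to 87784373 on the plus strand. The window held 16 WT (9.15 to 26.0) and 9 KO peaks (4.12 to 17.1), the most of the 6 genes in each list, but only 1 peak of each list had Nes as its nearest protein-coding gene. The rest lay nearer to the start of Bcan, Crabp2, Isg20l2, Rrnad1 or Hapln2. The number for the Nes window is therefore mostly a number for its neighbours.

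The single Nes peak lay in intron 2, 3.4 kb downstream of the TSS, at chr3:87778314-87778414 in WT and chr3:87778376-87778476 in KO. Its percentile was 27.2 in WT and 49.6 in KO. Both listings held the proneural E-box CAGATGG, the motif of bHLH factors such as the neurogenins, as printed above. Intron 2 of Nes is known as the site of its neural enhancer. The E-box was found in the central 200 bp of 3 of the 61 WT member peaks, 4.92%, against 3.75% of all WT peaks, the other 2 being the pair 22.5 and 22.6 kb into Pax6.

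The study's primers for chromatin immunoprecipitation (ChIP) at Nes matched 1 place in the window, a 153-bp product from 87774533 to 87774685, 467 to 315 bp before the TSS. The primers are printed here because they show which part of Nes that assay read.
Nes ChIP forward primer: gcagacttccctcagtaccag
Nes ChIP reverse primer: atggcttggtgttggaaacct
No WT or KO peak overlapped this product. The nearest peak was the intron 2 peak, at a gap of 3.6 kb in WT and 3.7 kb in KO, so that assay and the open site in the gene refer to different DNA.

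Among the distal peaks of the Nes window, the shared site with the lowest WT percentile lay 16 kb downstream, near Bcan, at 14.3 in WT and 26.5 in KO. In both lists a CTCF motif lay in its central 200 bp but not within the peak itself. That copy lay within the next KO peak, 16.1 kb downstream. Of the 4 WT-only peaks, the one 22.5 kb downstream had the motif of REST, a repressor of neuronal genes, in its central 200 bp. The motif was not within the peak itself, and 0.207% of all WT peaks had it in their central 200 bp. The other 3 WT-only peaks lay 40.4 and 10.4 kb upstream and 29.4 kb downstream. Of the 12 shared WT peaks, 4 had a higher percentile in KO, with a median change of -6.90, the only negative median of the 6 genes.

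Pax6 had an open promoter in both lists. The gene lies on chromosome 2 from 105509053 to 105543317 on the plus strand and has 29 annotated transcript starts, so that nearly all of its peaks count as promoter peaks, 11 in WT and 7 in KO. The window held 13 WT (6.92 to 22.2) and 7 KO peaks (2.81 to 14.4). At the first TSS both lists had a peak about 1.2 kb and 0.2 kb upstream. Every KO peak of Pax6 was shared.

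The 4 WT-only peaks of Pax6 lay 8.8 and 8.2 kb upstream and 6.5 and 11.5 kb downstream of the first TSS. The one at 6.5 kb lay 52 bp from an internal start. Its central 200 bp held the octamer ATGCAAAT, the motif of POU factors such as Oct4. A shared peak lay beside it at 6.7 kb. The WT-only peak at 11.5 kb was in intron 3, next to the shared peak at 11.8 kb. That shared peak had the lowest percentile of the gene in both lists, 9.4 in WT and 12.0 in KO, and its central 200 bp held the KLF motif CCCCACCC in both lists, as printed above for KO. Further shared peaks lay in intron 1 (9.0 kb) and intron 7 (18.8 to 18.9 kb and 22.5 to 22.6 kb). Over the 9 shared WT peaks, 7 had a higher percentile in KO, with a median change of 14.0.

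Pax3 had a promoter peak in both lists and few of its other peaks in KO. The gene lies on chromosome 1 from 78097842 to 78193709 on the minus strand. The window held 9 WT (4.12 to 17.1) and 3 KO peaks (0.619 to 8.77). The WT peak 107 bp before the TSS had 2 KO peaks beside it, 97 and 35 bp before the TSS, and was at percentile 70.7 in WT and 65.4 in the nearer KO peak. A second WT promoter peak, 268 bp after the TSS, was WT-only.

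The remaining Pax3 peaks formed 3 places. In intron 4, peaks 7.5 and 7.4 kb downstream were WT-only and were 72.0% and 69.5% GC in their central 200 bp. A peak 3.2 kb upstream was also WT-only. The third place, about 20 kb upstream, held 4 WT peaks, 18.9, 19.8, 20.2 and 20.5 kb upstream, of which the one at 20.2 kb, printed above, was shared. The upstream place was thus listed in both libraries but by 4 peaks in WT and 1 in KO, and its percentile went from 35.8 to 82.2.

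Neurog2 was the member with the most even lists. Its gene lies on chromosome 3 from 127336054 to 127338549 on the plus strand, and its window held 7 peaks in each list (2.81 to 14.4). All 7 KO peaks and 6 of 7 WT peaks were shared. The WT-only peak, 5.3 kb upstream, stood at percentile 98.2, near the end of the WT order.

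The shared Neurog2 sites lay on both sides of the gene. Upstream there were sites at 7.6 kb and at 6.8 to 6.9 kb, and a promoter peak 360 bp (WT) and 422 bp (KO) before the TSS. Downstream there were a site in the coding part of exon 2, 1.2 kb after the TSS, where KO had a pair of peaks, and a site at 6.9 kb, where KO again had a pair. The percentile was higher in KO at all 6 shared WT peaks. In WT and KO it was 6.1 and 21.8 at 7.6 kb upstream, 57.6 and 62.7 against 68.7 at the pair 6.8 to 6.9 kb upstream, 21.3 and 51.1 at the promoter, 6.7 and 56.0 in exon 2 and 9.4 and 21.8 at 6.9 kb downstream. Equal numbers of peaks thus went with a later place in the KO order, by a median of 14.1.

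Olig2 was the only gene of the 6 with more KO than WT peaks, 5 (1.62 to 11.7) against 3 (0.619 to 8.77). It lies on chromosome 16 from 91225795 to 91228922 on the plus strand. Its promoter peak, 223 bp before the TSS in WT and 175 bp in KO, was shared at percentiles 20 and 22.1. A second WT promoter peak, 644 bp before the TSS, was WT-only at percentile 98.9.

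The further Olig2 peaks all lay about 44 kb downstream, at the start of the neighbouring Olig1 gene, which encodes the related bHLH factor. The WT list had 1 peak there and the KO list 4, of which the 2 at 44.5 and 44.7 kb were the only KO-only peaks of the 6 windows. Their percentiles were 86.8 and 78.0. The KO excess in this window therefore belonged to the Olig1 promoter region, and the peaks nearest to Olig2 itself numbered 2 in WT and 1 in KO.

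Shared sites lay close together in the 2 lists. The 34 shared WT peaks lay a median of 31.5 bp from their nearest KO partner, with 31 within 100 bp and the farthest at 183 bp, and several WT peaks could have the same partner. Of the 34, 23 (67.6%) had a higher percentile in KO, against 55.1% of the 48865 shared WT peaks of the whole list, and 7 (20.6%) were higher by over 25, against 16%. The median change was 12.4 for the members and 1.51 for the whole list. These are descriptions over peaks of single libraries, and the values of neighbouring peaks are not independent.

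**Figure D4:**
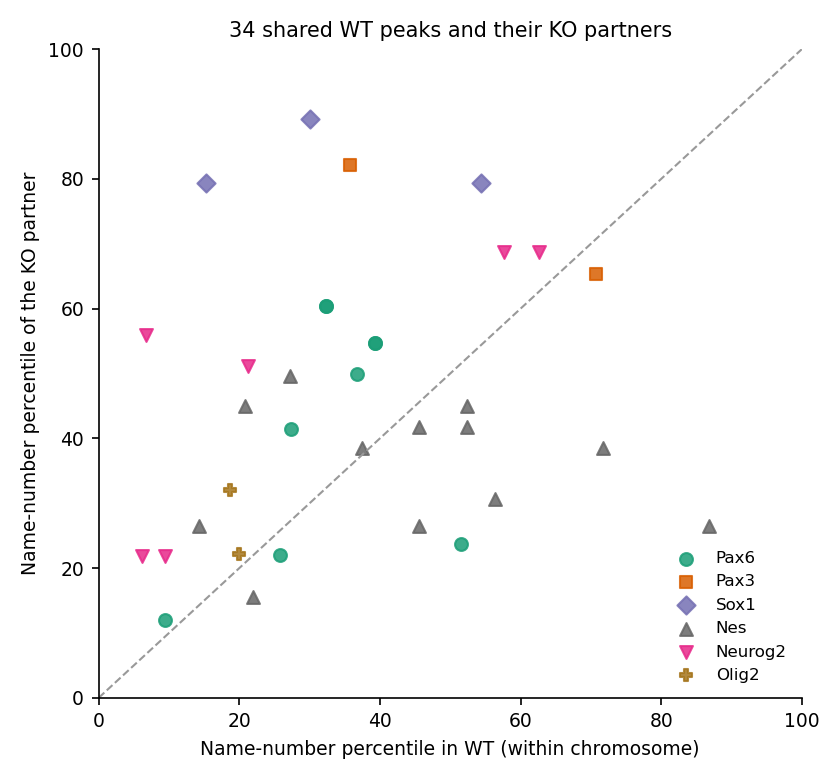
Percentile of the number in the peak name within its chromosome for the 34 shared WT peaks (x axis) and their nearest KO partners (y axis), 1 symbol and colour per gene, with the line of equal values dashed. The 3 Sox1 points and all Neurog2 points lie above the line, and 8 of the 12 Nes points lie below it.

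Base composition differed between the unshared peaks of these genes and those of the lists. In the central 200 bp the median GC content of WT-only peaks was 64.0% at the members and 58.0% over the list, while shared WT peaks had 61.2% and 60.5%. The 2 KO-only peaks had a median of 66.0%, against 49.5% over all KO-only peaks. Over the whole KO list 49.6% of peaks with less than 50% GC were KO-only but only 7% of those with 60% to 70% GC, the range that held 19 of the 34 KO peaks of the members. KO-only peaks were thus rare throughout the list at the GC content of most member peaks. For WT peaks of at least 70% GC, 26.9% of the list and 8 of 12 member peaks were WT-only, and on chromosome 8 the share was 34.3%. Those 8 member peaks all lay at Sox1 and Pax3, while the peaks of this GC content at Nes and Neurog2 were shared.

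**Figure D5:**
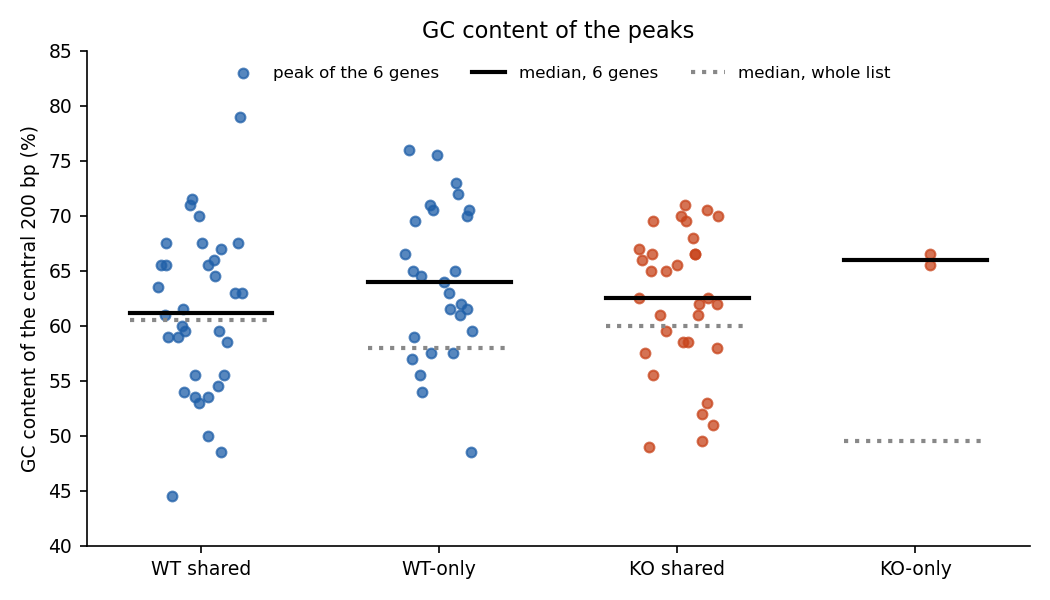
GC content in % of the central 200 bp (y axis) of each peak of the 6 genes, by list and by whether the peak was shared (x axis), with the members' median as a black line and the median of the whole list as a dotted line. The members' WT-only peaks have a median of 64.0% against 58.0%, and the 2 KO-only points lie above the dotted line at 49.5%.

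Every central 31 bp of the 61 WT and 34 KO member peaks occurred at 1 place in the genome, and the rest of each peak was not searched for copies. Motifs were searched on both strands of the central 200 bp, and those of pluripotency factors were rare. The octamer was in 4 of 61 WT peaks (6.56%, against 1.58% of all WT peaks) and 1 of 34 KO peaks (2.94%, against 1.94%). For 2 of those 4 WT peaks, both at the Sox1 promoter, it was the same copy, 18 bp after the TSS. That copy lay within the peak 61 bp after the TSS but beyond the end of the peak 46 bp before it. Of 32544 RefSeq promoters, 1.75% held the octamer. The SOX motif AACAATG was in 1 WT peak, and the composite motif of Oct4 and Sox2, which contains the octamer, was in 0 of 61 and 0 of 34. KLF motifs were in 4 WT peaks (6.56%, against 8.89%) and 4 KO peaks (11.8%, against 8.56%). CTCF motifs were in 2 WT peaks (3.28%, against 6.84%) and 3 KO peaks (8.82%, against 5.54%). In KO, the central 200 bp of 2 overlapping peaks of the Nes window took in the same KLF copy, and those of 2 others the same CTCF copy. RefSeq promoters were at hand for 5 of the 6 genes, all but Pax3, and among them the Olig2 promoter held a SOX motif, 68 bp before the TSS, as did 3.71% of all.

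The other genes of the neuroectoderm, a list chosen with earlier results of these data known, were counted in the same way. Of 50 names 48 were found, and their windows held 393 WT and 304 KO peaks, a ratio of 0.774. The KO number was lower at 31 of the 48 genes, against 56.7% of all protein-coding genes, higher at 9 and equal at 8. A ratio of at most 0.5 was found at 10, against 11.7%, and of at least 2 at 0, against 4.24%. The median ratio of 0.833 was close to the 0.875 of all protein-coding genes.

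By role, the patterning genes of the forebrain, midbrain and spinal cord had the lowest ratio, with 117 WT and 74 KO peaks (0.632) and fewer KO peaks at 12 of 14 genes. En1 and En2, the engrailed factors of the midbrain and hindbrain, went from 9 to 3 and from 8 to 2 peaks. Gbx2, a hindbrain factor, went from 15 to 9. Neural progenitor and neuron markers followed, with 67 and 46 peaks (0.687), among them the cell adhesion gene Ncam1 with 13 and 7 and the intermediate filament gene Vim with 15 and 9. The ratio was 0.850 for proneural and glial bHLH genes, 0.888 for early neural plate genes and 0.917 for neural crest genes. The largest KO excess was at Olig1, 4 and 7 peaks, whose window overlaps that of Olig2.

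Promoter peaks were listed at 40 of the 48 genes in WT and 36 in KO, and 7 had none in either. Like Sox1, 5 of the 48 had one in WT and none in KO, a pattern of 6.64% of all protein-coding genes and of 10.4% of those with a WT promoter peak: the bHLH genes Neurog3, Olig3 and Hes5, the interneuron homeobox gene Dbx1 and the RNA-binding progenitor marker Msi1. Fabp7, a fatty acid binding protein of radial glia, had one in KO and none in WT.

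Marker genes of the cells that a culture could hold were looked up in the same way. All 8 ESC markers had promoter peaks in both lists. Of 8 MEF markers 5 had them in both, and Col3a1, Postn and Lum had them in neither. Of the 5 markers of neural progenitors and neurons found, 2 had a promoter peak in WT and 4 in KO, the difference being Fabp7 and Slc1a3. The part of other cell types in the values of the 6 genes was not tested.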

How the data were processed

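ATAC-seq peaks of 1 WT and 1 Uhrf1 KO library of E14 ESCs were analysed, grouped by the genotype in the labels. Per the labels, the authors' processing used Bowtie2 2.1.0, HOMER 4.9.1 and the mm9 build, and the paper's methods state that fragments shorter than 150 bp were kept. Which tool called the peaks and at what threshold is not given in the sources used here. The deposited score is 1 for every peak, and the width was 101 bp, with 1 exception of 86 bp in KO, so neither gives a strength. The depth behind a single peak is unknown.

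Peaks were placed on GENCODE vM1, of the same build, by the distance of their middle to the TSS. Of the 6 genes 5 were found by name, and Sox1 was placed by its RefSeq promoter (250 bases before to 50 after the start). Peaks were shared at a gap of at most 100 bp, the study's distance for transcription factor peaks. This pairing was checked on 20000 simulated regions and gave 0 wrong calls. The simulated regions stood far apart with at most 1 partner each. The check therefore did not cover neighbouring peaks or the choice among several partners. No test between genotypes was possible. Shares have 95% Clopper-Pearson and numbers 95% exact Poisson intervals. Named were the 6 genes, their promoter peaks, the distal peaks of each kind with the lowest name number, and, of the other neuroectoderm genes, those with a promoter peak in 1 list only or the largest difference. Other peaks given by position complete the description of their gene and were added after their values were seen. The members and lists were chosen with earlier results of these data known. Analyses used Python 3.11.15, numpy 2.4.6, pandas 2.3.3, scipy 1.17.1, numba 0.67.0 and matplotlib 3.10.9.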

Additional observations from a re-analysis of the deposited data

How the results depend on the processing

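Pax6, Pax3 and Sox1 had fewer KO than WT peaks in all 6 other settings of window and peak choice. Nes did in 4 of 6, and Neurog2 and Olig2 in 2 of 6. Over the 6 genes, 31 of 44 values stayed within 1.5 times the reported number or, for shares, within its 95% interval. With 10 kb on either side 22 KO peaks and a KO-only share of 0% were found, and with 100 kb 60 KO peaks. With peaks nearest to the gene itself there were 22 KO peaks and a KO-only share of 0%. With the lower 50% of name numbers there were 37 WT and 19 KO peaks, a WT-only share of 59.5% (29.5% over all WT peaks) and 2 genes with a KO promoter peak. When partners had to share 50% of both peaks the WT-only share was 60.7% and the KO-only share 35.3% (50.2% and 42.4% over the whole lists), and with a gap of at most 500 bp they were 31.1% and 0% (24.1% and 21.6%). The setting without Sox1 was chosen after seeing the data. The cause of these changes was not tested. A threshold by score was not run, since all scores are equal. No paired analysis was possible because there is a single library of WT and a single library of KO. Without read counts, a site just under the caller's threshold in 1 library cannot be told apart from a closed one.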
